A study of Rattus norvegicus with 10 samples.

Results

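Scd and Nr0b2, a pair of genes with roles in lipid metabolism, were each measured by 1 probe on arrays of rat aorta, so that 2 of the 38804 probes of the array are described here. The probes were taken from the study's list of 20 mRNAs, 10 raised and 10 lowered by LPS, which was made from these same arrays. Both genes are among the lowered ones. Their difference between the groups is therefore given as a description, without a test. The files hold probe names and no gene names, so the gene of each probe rests on that list. By qRT-PCR of the listed mRNAs, the study names Nr0b2 among those that matched the arrays and does not name Scd.

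The samples came from male Wistar rats aged 8 weeks. The LPS group (5 rats) received lipopolysaccharide from bacteria at 10 mg/kg by intraperitoneal injection, and the control group (5 rats) received saline by the same route. Aortas were collected 24 h after the injection, frozen and used for total RNA, and the labels list 1 single-colour (Cy3) Agilent array per rat. The labels call the tissue blood vessel and the study calls it aorta. How much of the surrounding tissue was taken along is not given in the sources used here, and no probe is named for any of the 5 smooth muscle or 5 endothelial markers looked for, so the tissue label was not checked.

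Scd encodes stearoyl-CoA desaturase, the enzyme of the endoplasmic reticulum that places a double bond into saturated fatty acyl-CoA and so makes the monounsaturated fatty acids of membranes and stored triglyceride. Its transcription is known to rise with insulin, with SREBP-1c and with LXR. It is abundant in liver and adipose tissue. Nr0b2 encodes SHP (small heterodimer partner), an orphan nuclear receptor without a DNA-binding domain that binds other nuclear receptors and represses their targets. It is best known as the product of FXR activation that lowers bile acid synthesis in liver, where it also acts on lipid and glucose genes.

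The 300-base windows around the annotated start sites, 250 bases before and 50 after, are shown because they are the sequence from which the control of each gene is usually described, and because both transcripts differed in the same direction. They were read 5′ to 3′ on the strand of the gene from the RefSeq annotation of GRCr8. The Scd window is chr1:253231682-253231981 on the minus strand, and the Nr0b2 window is chr5:151062910-151063209 on the plus strand. Capitals mark matches, on either strand, to the TATA box (TATAAA), the box named for its letters (CCAAT), an E-box (CACGTG), the half-site of nuclear receptors (AGGTCA) and the core of an extended half-site (TCAAGG). The sterol regulatory element of the LDL receptor gene was searched as well.
Scd: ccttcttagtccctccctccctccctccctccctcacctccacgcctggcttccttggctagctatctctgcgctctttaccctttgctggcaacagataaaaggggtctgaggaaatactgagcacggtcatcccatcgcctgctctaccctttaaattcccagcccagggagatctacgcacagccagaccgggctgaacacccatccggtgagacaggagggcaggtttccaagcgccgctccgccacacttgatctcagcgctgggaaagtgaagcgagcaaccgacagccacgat
Nr0b2: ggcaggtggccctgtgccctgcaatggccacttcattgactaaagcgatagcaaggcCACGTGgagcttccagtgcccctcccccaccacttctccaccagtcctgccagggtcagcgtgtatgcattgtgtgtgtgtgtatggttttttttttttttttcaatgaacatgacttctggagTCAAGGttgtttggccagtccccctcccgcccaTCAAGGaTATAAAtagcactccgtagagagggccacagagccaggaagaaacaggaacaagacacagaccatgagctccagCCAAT

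Positions are counted from the start site, negative before it. The Nr0b2 window held TATAAA at -29 to -24, TCAAGG at -69 to -64 and at -36 to -31, CACGTG at -193 to -188 and CCAAT at 46 to 50. Neither AGGTCA nor the sterol regulatory element was found in it. None of the 6 strings was found in the Scd window, which says only that these letters are not in these 300 bases. Among 33469 rat windows of the same length, 14.2% held TATAAA, 37.5% CCAAT, 6.42% CACGTG, 16.2% AGGTCA, 14.8% TCAAGG and 0.125% the sterol regulatory element. The window of Scd had a GC content of 58.3% and that of Nr0b2 52.3%. A match is a string of letters and was not tested as a binding site. The same annotation gives Scd as an older name of the gene now called Scd2, and Scd1 as an older name of the gene now called Scd. The study's list gives the Scd probe an Ensembl transcript on chromosome 1. The reference tables used here do not pair that transcript with a gene, and both Scd and Scd2 lie on chromosome 1. The probe sequence was not used here, so whether the signal called Scd comes from Scd, from Scd2 or from both cannot be told apart. The Scd window shown is that of the gene now called Scd, which may not be the gene measured.

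Values are log2 intensities relative to the 75th percentile of the same array, so that 1 unit is a doubling. They compare 1 probe between arrays and do not rank one gene's transcript level against another's. The arrays of LPS rats 1 and 3 differed by no more than the error of the spots (0.984 times the squared difference that this error alone gives), and so did those of control rats 15 and 17 (0.778 times). For the other pairs of arrays this ratio was 4.01 or more. The labels and the study give them as separate rats, with 5 in each group. Here the mean of each such pair stands for 1 sample, so that n is 4 in either group, which departs from the 5 of the labels. The arrays carried 3 different scan identifiers. Arrays that share an identifier are called a slide here, and no slide label was read. Slide 1 held the arrays of control rats 15 to 18, slide 2 those of LPS rats 1, 3 and 5 and of control rat 20, and slide 3 those of LPS rats 6 and 7. The share of probes well above background ran from 79.6% to 92.6% over the arrays, and no spot was saturated. The number of arrays limits the precision of every value.

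Scd was lower on every LPS array than on every control array. The background-corrected intensity of its spot was 140.2, 95.35, 127.4, 69.14 and 164.4 on the arrays of LPS rats 1, 3, 5, 6 and 7. On the arrays of control rats 15, 16, 17, 18 and 20 it was 903.3, 289.0, 1073, 11720 and 563.1. All 10 spots were well above background and none was marked as an outlier or as saturated. The brightest control array was that of rat 18. After scaling, the relative log2 intensity of Scd was -1.72 in LPS rats 1 and 3, -0.82 in LPS rat 5, -2.10 in LPS rat 6 and -1.17 in LPS rat 7. In the control samples it was 1.81 in rats 15 and 17, 0.60 in rat 16, 5.89 in rat 18 and 0.49 in rat 20. The LPS samples thus lay within a 2.43-fold range, whereas the control samples spanned a 42.1-fold range.

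LPS samples had a mean relative log2 intensity of Scd of -1.45 ± 0.57 (SD, n = 4), and control samples one of 2.20 ± 2.53 (SD, n = 4). The difference was -3.65 on the log2 scale, with a standard error of 1.04 from limma, a 12.5-fold lower signal after LPS. The lowest control sample was 1.31 above the highest LPS sample. Both Scd and Nr0b2 had all LPS samples below all control samples, as did 1.71% of the 33696 mRNA and lncRNA probes compared. Since the pair was chosen on this contrast, nothing is read from that share. Of the 26234 mRNA probes compared, 6 had a more negative difference than Scd. This number was 25 without control rat 18, 22 by group medians and 614 within slide 2. For the same reason, nothing is read from these places either.

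The size of the Scd difference rested on control rat 18. Without that rat, the difference was -2.42, or 5.35-fold. Compared with the LPS mean, Scd was 162-fold higher in control rat 18, 9.61-fold higher in control rats 15 and 17, 4.14-fold higher in control rat 16 and 3.84-fold higher in control rat 20. On the linear scale, rat 18 held 90.2% of the summed Scd level of the 4 control samples. The difference of the group medians was -2.65, and the log2 ratio of the linear group means was -5.40, a 42.2-fold difference. Within slide 2, which alone carried arrays of both groups and had rat 20 as its single control, the difference was -1.76, or 3.39-fold. The slide entered as a block gave the same value. Every setting kept the LPS signal lower.

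**Figure D1:**
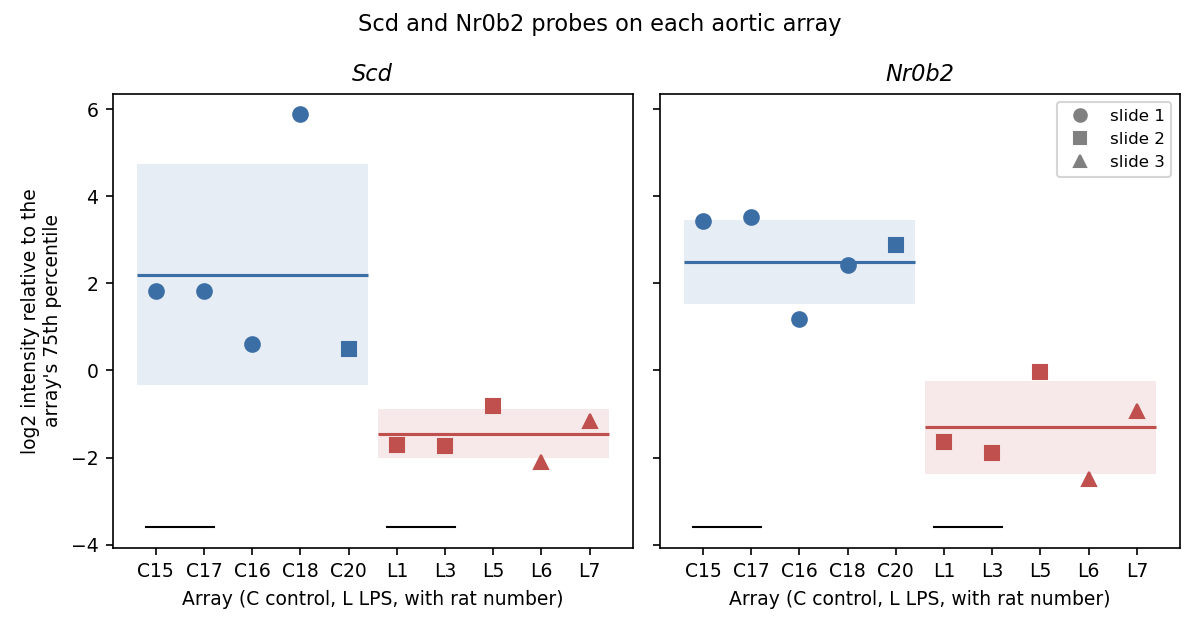
Relative log2 intensity of the Scd probe (left) and the Nr0b2 probe (right) on each of the 10 arrays, with control arrays in blue and LPS arrays in red and the marker shape showing the slide. Lines are the means and bands the SD of the 4 samples of a group, and the black bars at the bottom join arrays that were averaged as 1 sample. Control rat 18 stands at 5.89 for Scd, and no LPS array reaches any control array for either gene.

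Nr0b2 was likewise lower on every LPS array, and its control samples spanned a 4.86-fold range. The background-corrected intensity of its spot was 147.0, 85.14, 220.6, 52.28 and 193.1 on the arrays of LPS rats 1, 3, 5, 6 and 7. On the arrays of control rats 15, 16, 17, 18 and 20 it was 2759, 435.4, 3492, 1059 and 2938. The relative log2 intensity was -1.77 in LPS rats 1 and 3, -0.03 in LPS rat 5, -2.50 in LPS rat 6 and -0.94 in LPS rat 7. The control values were 3.47 in rats 15 and 17, 1.19 in rat 16, 2.42 in rat 18 and 2.87 in rat 20. The lowest control sample, rat 16, was 1.22 above the highest LPS sample, rat 5.

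For Nr0b2, LPS samples averaged -1.31 ± 1.07 (SD, n = 4) on the relative log2 scale, and control samples 2.49 ± 0.97 (SD, n = 4). The difference was -3.80 with a standard error of 0.60 from limma, a 13.9-fold lower signal after LPS. Of the 26234 mRNA probes, 5 had a more negative difference, with 3 without control rat 18, 5 by group medians and 102 within slide 2. Nothing is read from these places, since Nr0b2 was chosen on this contrast. The difference of Nr0b2 lay between -4.23 and -3.27 over the 17 other settings, or between 9.65-fold and 18.8-fold. It was -3.77 within slide 2 and -3.82 without control rat 18. The differences of Scd and Nr0b2 were thus similar in size over all samples, but that of Scd moved with control rat 18 and that of Nr0b2 did not. In these whole-tissue samples, fewer cells of a type and less transcript in each cell cannot be told apart, for either gene.

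The spread between control rats was wide for Scd, and its width rested on control rat 18. The SD of its 4 control samples, 2.53, was exceeded by 105 of the 33696 probes (0.312%), where the median probe had an SD of 0.42. In the LPS samples the SD of Scd was 0.57, and 20.1% of the probes had a larger one, with a median of 0.35. Nr0b2 had a control SD of 0.97, which 10.7% of the probes exceeded. Its LPS SD of 1.07 was exceeded by 2.5%. Without control rat 18, the control SD of Scd was 0.74 (n = 3), which 19.2% of the probes exceeded over the same 3 samples. That is close to its LPS SD. Without control rat 16, the control SD of Nr0b2 was 0.53 (n = 3), which 30.8% of the probes exceeded. The share was 6.52% for Nr0b2 without control rat 18 and 0.104% for Scd without control rat 20. In the LPS samples with each left out, the SD of Scd lay between 0.45 and 0.66, exceeded by 13.1% (without LPS rats 1 and 3) to 33.7% (without LPS rat 6) of the probes. That of Nr0b2 lay between 0.78 and 1.27, exceeded by 1.43% to 6.67%. The highest share came without LPS rat 5, with 6.55% without LPS rat 6, and the lowest without LPS rats 1 and 3. These ranks are descriptions and were not tested.

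**Figure D2:**
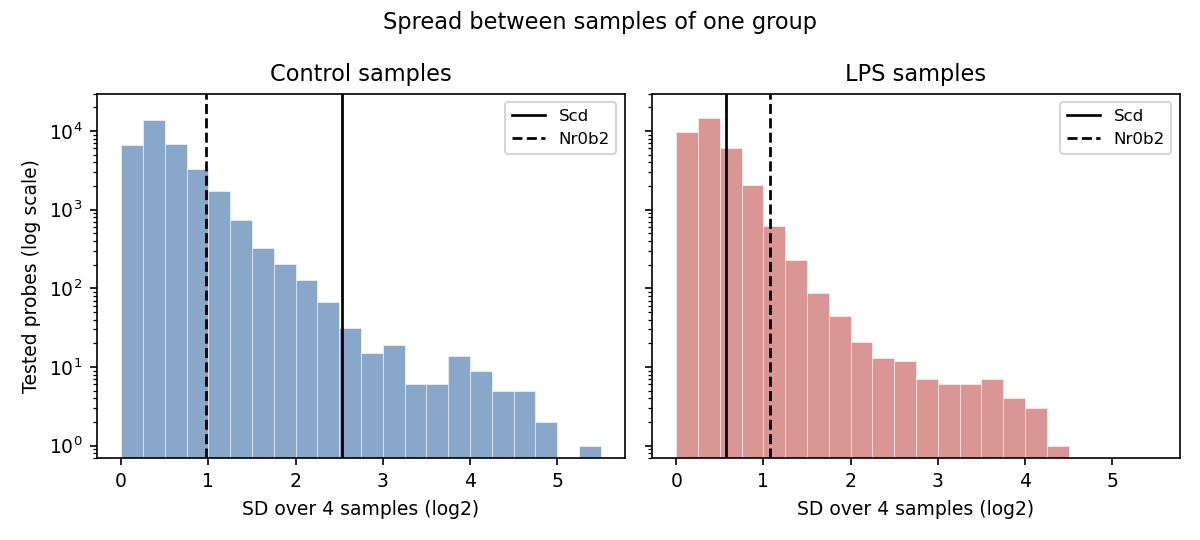
Number of the 33696 compared probes (log axis) by the SD of their relative log2 intensity over the 4 control samples (left) and the 4 LPS samples (right). The solid line marks Scd, at 2.53 and 0.57, and the dashed line marks Nr0b2, at 0.97 and 1.07.

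The software attaches to each spot of Scd and Nr0b2 an error of about 10% of the signal, or 0.14 on the log2 scale. For Scd, control rat 18 was 4.07 above the next control sample, or 16.8-fold. By Dixon's test it did not pass as an outlier among the 4 control samples (ratio 0.755, against a 95% critical value of 0.829). No sample passed in any of the 20 sets of named mRNA and group checked. With 4 samples a set, the test can hardly mark a value, so nothing is concluded from it about rat 18. In all, 4 of the 33696 probes, Scd among them, had rat 18 above the other control samples by that much. Such a lead was held by 5 probes in control rats 15 and 17, 5 in rat 16 and 91 in rat 20. Rat 18 was the highest control sample for 24.2% of the probes. Among the lowered mRNAs of the list, it was also highest for Cib2, Mtfp1, Shank2, Cox8b, Ucp1 and Adssl1. For Nr0b2, Lrrc52 and Fabp3 another control sample was highest. The Adssl1 values of rat 18 (6.21) and rat 20 (6.15) were closer than the software error. The array of rat 18 had 83.4% of the probes well above background and a median correlation of 0.956 with the other control arrays. The same measure was between 0.949 and 0.955 for the other control arrays. For rats 15 and 17, it left out the near-identical array of the other rat. The arrays of rats 15, 16 and 17, on the same slide as that of rat 18, had Scd values between 0.60 and 1.82.

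The LPS samples had the same order for both genes, from rat 6 through rats 1 and 3 and rat 7 to rat 5. Of the 33696 probes, 3.31% had this order. The order of the control samples differed between the genes. For Scd it ran from rat 20 through rat 16 and rats 15 and 17 to rat 18, and for Nr0b2 from rat 16 through rat 18 and rat 20 to rats 15 and 17. For Scd, control rats 20 and 16 were closer than the software error, so their order is not settled.

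Whether the pair varied together from rat to rat was tested on deviations from the group means. Their size enters the study's test, on which the genes were chosen, but their correlation does not. Over the 8 samples, Pearson's r between Scd and Nr0b2 was 0.23 (exact two-sided permutation test within groups, p = 0.599, adjusted p = 0.882 over 37 relations). Spearman's rho was 0.31 (exact permutation test, p = 0.495). The deviations had the same sign in 5 of 8 samples. Without control rats 18 and 20, the samples farthest from the median deviation of Scd, r was 0.997 over 6 samples (exact permutation test, p = 0.0417). The 2 control samples left there have equal and opposite deviations, and the samples were set aside by their Scd values. This value therefore supports no statement on the pair. Leaving out 1 sample, r was 0.82 without control rat 18, 0.35 without control rat 20 and -0.02 without control rat 16. Across the 26233 other mRNA probes, the median correlation of deviations with Scd was -0.03. For 32.0% of them, r with Scd was at least that of Nr0b2. That share counts the sign of r, so strong negative correlations are not in it.

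**Figure D3:**
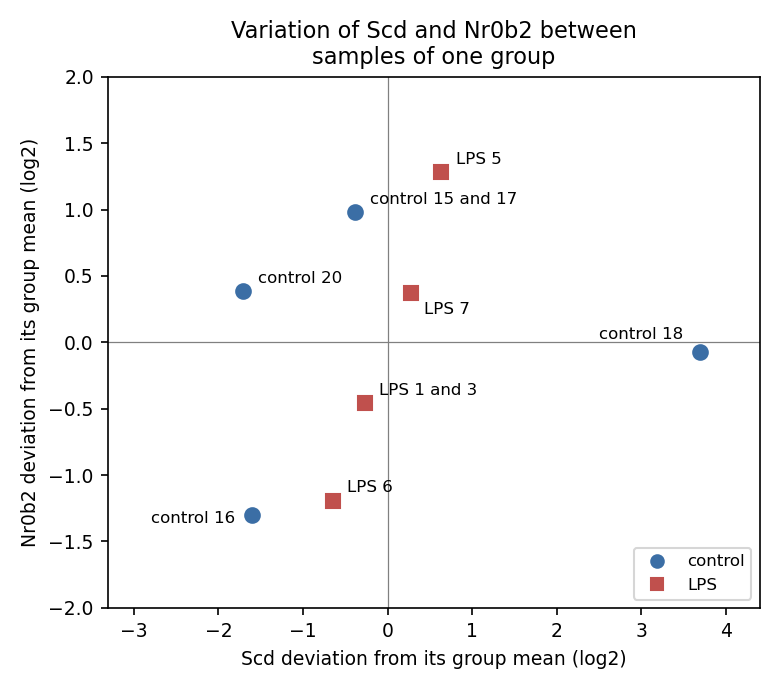
Deviation of each sample from its group mean on the log2 scale, for Scd (horizontal axis) and Nr0b2 (vertical axis), with control samples as blue circles and LPS samples as red squares. The LPS samples rise together for both genes, while control rat 18 is 3.69 above its group mean for Scd and 0.07 below it for Nr0b2.

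The other 18 named mRNAs of the list were compared with each gene in the same way. None of the 37 relations had an adjusted p under 0.05 (exact permutation tests with Benjamini-Hochberg adjustment, lowest adjusted p = 0.257), and 5 had an unadjusted p under 0.05. The deviations of Scd were most like those of Cib2, a calcium- and integrin-binding protein, with r = 0.89 (exact permutation test, p = 0.00694, adjusted p = 0.257) and rho = 0.93 (exact permutation test, p = 0.00347). The deviations had the same sign in 7 of 8 samples. Without control rat 18, r between Scd and Cib2 was 0.83 (exact permutation test, p = 0.0556), and without control rats 18 and 20 it was 0.80. Next came Mtfp1, a mitochondrial fission protein, with r = 0.77, and Shank2, a scaffold protein of synapses, with r = 0.76. By the root mean square difference of values centred over all 8 samples, the same 3 mRNAs were the closest to Scd, at 1.20, 1.24 and 1.12. That measure holds the contrast on which the list was chosen and is no added support.

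Over all 8 samples, the 3 mRNAs most like Nr0b2 were Lrrc52, Adssl1 and Cox8b. Lrrc52, a leucine-rich repeat protein, had r = 0.84 (exact permutation test, p = 0.0174, adjusted p = 0.295) and rho = 0.90 (exact permutation test, p = 0.0104), with the same sign in 7 of 8 samples. Without control rat 16 and LPS rat 6, the samples farthest from its median, r with Lrrc52 was 0.73. Adssl1, an adenylosuccinate synthase of muscle, had r = 0.81, and Cox8b, a subunit of cytochrome c oxidase, had r = 0.80, and both had r = 0.55 without those samples. Without control rats 18 and 20, r with Scd was 0.91 for Lrrc52, 0.92 for Adssl1 and 0.90 for Cox8b, against 0.80 for Cib2, 0.92 for Mtfp1 and 0.58 for Shank2. This is the subset of 6 samples that supports no statement, and S100a9, at 0.00 over all samples, had r = 0.83 in them. Whether Scd and Nr0b2 differ in the mRNAs they vary with was not tested. By the root mean square difference, the closest to Nr0b2 were Lrrc52 at 0.54, Adssl1 at 0.86 and Cox8b at 0.86. Among the raised mRNAs, S100a8 and S100a9 had r of 0.75 and 0.78 with Nr0b2 within the groups (exact permutation tests, p = 0.0399 and 0.0347, adjusted p = 0.295 for both). Of all other mRNA probes, 351 (1.34%) had an r of at least 0.9 with Scd and 98 (0.374%) an r of -0.9 or lower. For Nr0b2 these counts were 18 (0.0686%) and 4 (0.0152%). The deviation of control rat 18, 3.69, is the largest in size among the 8 deviations of Scd.

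**Figure D4:**
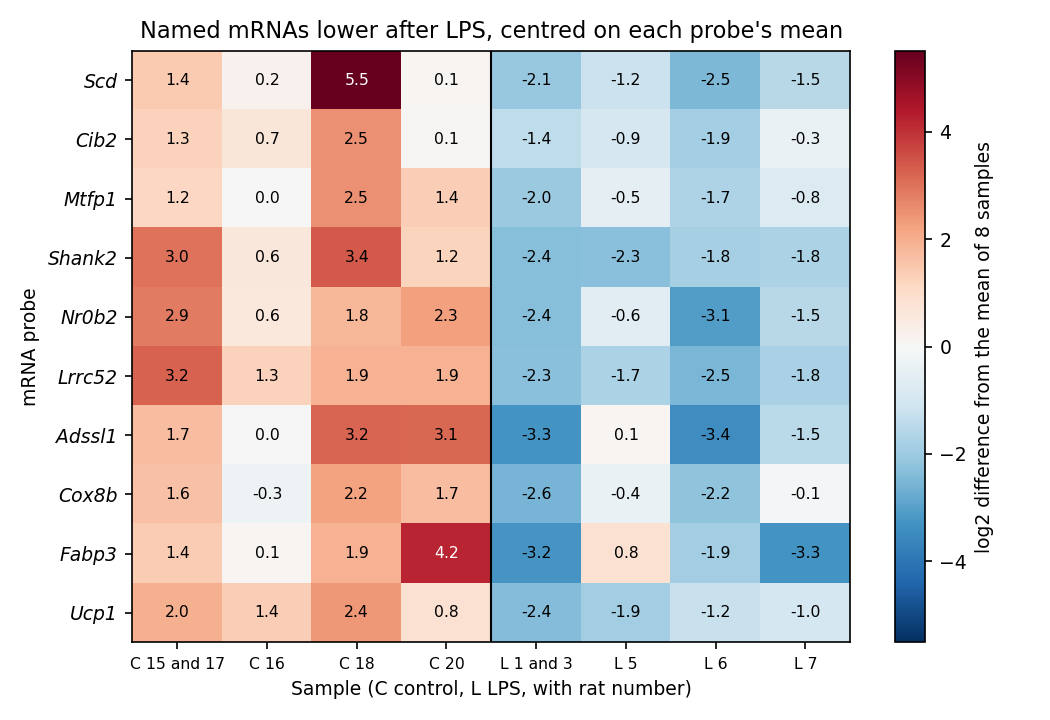
Relative log2 intensity of the 10 named mRNAs of the lowered list in the 8 samples, each centred on its own mean over all samples, with control samples left of the black line and LPS samples right of it. Red is above and blue below the mean of the probe, and the strongest red, Scd in control rat 18, is not matched in any other gene of that sample.

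The named markers of brown adipocytes, cells that lie around the rat aorta, had lower means after LPS, as did both genes. Of 8 brown adipocyte markers looked for, 3 have a named probe, namely Ucp1, the uncoupling protein of brown fat, Cox8b and Fabp3, a fatty acid carrier also used in muscle. All 3 are in the study's lowered list, so their direction is not independent. The relative log2 intensity of Ucp1 was 4.87 in LPS rats 1 and 3, 5.33 in rat 5, 6.04 in rat 6 and 6.30 in rat 7, against 9.25 in control rats 15 and 17, 8.63 in rat 16, 9.64 in rat 18 and 8.09 in rat 20. The groups did not overlap, and Ucp1 differed by -3.27 with a standard error of 0.41 from limma. For Cox8b the LPS samples lay between 2.22 and 4.72 and the control samples between 4.50 and 7.01, and for Fabp3 between 0.20 and 4.30 and between 3.57 and 7.68, so that both overlapped. None of the 3 was at background on any array. Their summed level, relative to the 75th percentile on the linear scale, ranged from 35.1 to 106 in the LPS samples and from 431 to 970 in the control samples, with the highest value in control rat 18. Ucp1 made up between 48.0% and 92.0% of that sum in a sample. The sum adds signals of different probes. Within the groups, r with Scd was 0.59 for Ucp1, 0.53 for Cox8b and 0.05 for Fabp3, and r with Nr0b2 was 0.01, 0.80 and 0.57, with adjusted p of at least 0.303 in exact permutation tests. The named markers of neutrophils had higher means after LPS, and the only named marker of striated muscle had a lower mean, with overlap. Of 5 neutrophil markers looked for, S100a8 and S100a9, which form calprotectin, have a named probe, and both are in the raised list. The relative log2 intensity of S100a8 was 4.97 to 6.17 in the LPS samples and -0.94 to 2.0 in the control samples, and that of S100a9 was 4.51 to 5.47 and -0.51 to 2.07. Neither overlapped between the groups. Since both come from a list made on this contrast, nothing is read from that. Their summed level ranged from 54.1 to 116 in the LPS samples and from 1.22 to 8.21 in the control samples. This sum, too, adds signals of different probes. Of 6 striated muscle markers, Adssl1 alone has a named probe. It is in the lowered list, lay between -0.41 and 3.12 in the LPS samples and between 2.98 and 6.21 in the control samples, and so overlapped. The part of all these markers in the lower Scd and Nr0b2 signal was not tested.

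The rest of the pathways of both genes was not analysed here. Of 17 genes of fatty acid synthesis, Scd was the only one with a named probe, and of 14 nuclear receptors and targets linked with SHP, Nr0b2 was the only one. No probe was named for 8 genes of cholesterol synthesis, 12 of triglyceride storage, 6 LXR targets, 8 adipocyte markers or 5 hepatocyte markers.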

How the data were processed

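Aortic RNA of 5 LPS and 5 control rats was measured on Agilent arrays with 1 colour. The intensity of each spot was deposited as the authors' feature extraction software gave it, corrected for background within the array and not normalised between arrays. The authors also deposited log2 values whose quartiles differ by at most 0.000181 between arrays. How they were normalised is not given in the sources used here, and they served as an alternative.

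Control spots and spots marked as outliers were left out. From each log2 intensity, the 75th percentile of the log2 intensities on that array was subtracted. Arrays of 1 group that differed by no more than the spot error were averaged. The mRNA and lncRNA probes well above background on at least 5 arrays were fitted with limma (version 3.58.1, R 4.3.3). No p-value was computed for Scd or Nr0b2 between the groups. Deviations from group means were correlated, with two-sided exact permutation tests (576 orderings), in which 0.00174 is the smallest p possible, with Benjamini-Hochberg adjustment over 37 relations. The steps were tested on simulated data.

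The members, lists and the averaging of arrays were chosen with earlier results of these data known, and the motifs after the windows had been seen. The genes named are Scd, Nr0b2, the 3 mRNAs of the list most like each by either measure, and Ucp1, Cox8b and Fabp3. S100a8 and S100a9 were named after their values were seen. The alternatives were 10 separate arrays, quantile normalisation, normexp (offset 50, on the median spot signal), the authors' values, outlier spots kept, other filters, the slide and each sample left out. The ratio of linear means, the SDs without each sample and the places among mRNA probes in other settings were added after the data were examined.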

Additional observations from a re-analysis of the deposited data

How the results depend on the processing

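No paired analysis was possible because the LPS and control rats share no numbers in the labels. Scd and Nr0b2 stayed lower after LPS in all 17 other settings, and their groups did not overlap in any of the 13 of these in which overlap was counted. The Scd difference moved most with the slide as a block and within slide 2 (-1.76 in both), where the control group is rat 20 alone. With each sample left out it lay between -4.22 and -2.42, and that of Nr0b2 between -4.23 and -3.40. The correlation of Scd with Nr0b2 lay between -0.02 (without control rat 16) and 0.82 (without control rat 18) with each sample left out, and reached 0.997 without control rats 18 and 20. The number of relations called was 2 with 10 separate arrays, those of Scd with Cib2 (adjusted p = 0.0167) and of Nr0b2 with Lrrc52 (adjusted p = 0.00771, exact permutation tests). These p-values count near-identical arrays as separate. With each sample left out the correlation of Nr0b2 with Ucp1 lay between -0.13 and 0.21 (-0.12 without LPS rats 1 and 3, -0.11 without control rats 15 and 17), and that of Scd with Fabp3 between -0.18 and 0.43. The count of 577 probes with no overlap was 384 with 10 separate arrays and between 656 and 1732 with each sample left out (1190 without LPS rats 1 and 3, 912 without control rats 15 and 17), where fewer samples have to be separated. Background correction by normexp made both differences smaller, -3.18 for Scd and -3.27 for Nr0b2 (9.06-fold and 9.65-fold). The dimmest spot of the pair was that of Nr0b2 in LPS rat 6, at 52.28 intensity units, and the cause was not tested.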
